A study of Mus musculus with 11 samples.

Results

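The miR-378 family was described in small RNA libraries of mouse embryonic stem (mES) cells with and without Trim71, an RNA-binding protein of stem cells. Members were chosen by name, as every row of the deposited miRNA table called miR-378, with any letter and either arm. This gave 5 of the 592 miRNA rows, namely miR-378a-3p, mmu-miR-378a-5p (miR-378a-5p below, without the prefix for mouse), miR-378b, miR-378c and miR-378d. The family itself was proposed because miR-378a-5p stood out in the genotype contrast of these same libraries. The genotype differences are therefore given as a description of the selected rows. Where their place against the thresholds of the study is stated, it describes the selection and is no test.

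All cells were male C57BL/6 mES cells in medium with FCS and LIF, from blastocysts of mice homozygous for a floxed last exon of Trim71 and for Rosa26-CreERT2. The Cre recombinase of this allele is active in any cell type once 4-hydroxytamoxifen (4-OHT) is given. Trim-/- cells had received 500 nM 4-OHT for 2 days and were then cultured for at least 7 days, according to the labels, whereas Trimfl/fl cells kept the floxed exon. The Methods give other conditions, a lower 4-OHT concentration, a shorter culture and the solvent DMSO for Trimfl/fl cells, and which were used here is not settled by either source. Cells were sorted magnetically for the stem cell antigen SSEA-1 before harvest. There were 5 Trim-/- and 6 Trimfl/fl libraries from 2 clones, paired by day on days 1, 5 and 6 (clone 1) and on days 3 and 4 (clone E3). Trim71 mRNA is not in a miRNA table, so that its loss was not measured in these libraries.

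The structure of the table bears on every value below. For all 5 members the Trim-/- and the Trimfl/fl value of a day add up to the same sum on every day, to within 0.001%, as they do in 485 rows, all but 1 of those without a value at the floor of 1. Same-day libraries thus mirror each other, each day gives 1 difference, and both genotypes have the same SD. The order of days within a genotype is set by these differences and is no separate result. Levels of a library before the authors' batch correction cannot be recovered from such values. For the same reason a row that is higher in Trim-/- on all days also has no overlap between the genotypes, so that these are 1 fact and not 2. The Trimfl/fl library of day 2 equals the mean of the other Trimfl/fl libraries in all 5 members and was left out. None of the 55 member values lay at the floor. The labelled cell type was checked by the miR-290 to miR-295, miR-302 and miR-367 miRNAs typical of mES cells, whose 27 rows held 55.5% to 59.7% of a Trim-/- library and 56.8% to 59.8% of a Trimfl/fl library, with miR-292-5p as the highest row. The fitted genotype difference was positive in 13 of these rows and negative in 14, beside 303 and 289 of all rows. All listed rows of miR-302 and miR-367 were among the negative ones.

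miRNAs are cut from hairpins, whose 5p and 3p arms can each give a mature strand. One strand is usually loaded into Argonaute and finds targets through its seed (bases 2 to 8), while the other is mostly degraded. The Mir378a hairpin is made from an intron of Ppargc1b, which encodes PGC-1beta, a coactivator of mitochondrial and lipid metabolism genes. miR-378 is best known from muscle, heart and fat, where both of its arms have been tied to energy metabolism. The miR-378b, miR-378c and miR-378d copies lie elsewhere in the genome and have a mature strand close to miR-378a-3p.

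The mature strands of the 3 copies outside Ppargc1b are printed to show how little separates them, since reads of such close copies could have been divided between rows by the authors' alignment. They come from RefSeq on GRCm38.p6, which held 463 of the 592 rows and 3 of the 5 members, and the capitals mark the seed:
miR-378b: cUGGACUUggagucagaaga
miR-378c: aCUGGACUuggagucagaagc
miR-378d: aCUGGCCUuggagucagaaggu
miR-378b, of 20 bases, lies on the plus strand at chr11:88352839-88352858, in an intron of Msi2, which is transcribed from the opposite strand. miR-378c, of 21 bases, lies on the minus strand at chr14:46954905-46954925, in an intron of Samd4, again against the direction of the host gene. miR-378d, of 22 bases, lies on the minus strand at chr10:126710355-126710376 and within no protein-coding gene of GENCODE M21.

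All 3 strands hold the same run of 14 bases, CUUGGAGUCAGAAG, which occurs in no other of the 463 rows with a RefSeq entry. Counted from the 5′ end of miR-378c, miR-378d differs by A6C, inside the seed, and by C21G. miR-378b begins 1 base later than miR-378c and differs from it only at its last base, A20C counted from the 5′ end of miR-378b. This shift moves the seed window, so that the 3 rows carry 3 different seeds. None of these seeds was found in another of the 463 rows with an entry, which do not include miR-378a-3p and miR-378a-5p.

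miR-378a-3p, the main strand of the Ppargc1b hairpin, dominated the family in mES cells. In the 5 paired Trimfl/fl libraries its normalized read counts were 6081, 6393, 8450.5, 1965 and 5874 on days 1, 3, 4, 5 and 6, with a mean of 5753 ± 2353 (SD, n = 5). By mean it was the 54th highest of the 592 rows, and its share of all values in a library was 0.0717% to 0.195%. The highest value was that of day 4 and by far the lowest that of day 5.

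miR-378c followed with 1283, 1287, 1681, 669 and 1451 normalized read counts in the same Trimfl/fl libraries, and a mean of 1274 ± 375 (SD, n = 5). Its day order was close to that of miR-378a-3p, with day 4 highest and day 5 lowest. miR-378a-5p, the lesser arm of the Ppargc1b hairpin, had 64.5, 66.0, 48.7, 67.1 and 54.2 normalized read counts, a mean of 60.1 ± 8.19 (SD, n = 5). Here day 4 was lowest and day 5 highest, the reverse of the other arm. Because of the constant same-day sums, these day orders restate the genotype differences given below.

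miR-378b had 29.8, 24.6, 36.7, 6.46 and 29.5 normalized read counts in these libraries, a mean of 25.4 ± 11.4 (SD, n = 5). miR-378d had 19.6, 20.8, 21.7, 11.1 and 21.1 normalized read counts, a mean of 18.9 ± 4.41 (SD, n = 5). Both were again lowest on day 5 and highest on day 4, and both lay below 137.3, the median row mean of the table. miR-378a-5p lay below this median as well.

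The order of the levels was tested between neighbours within each Trimfl/fl library, by exact sign-flip permutation of log2(value + 1) differences, two-sided and adjusted over the 4 neighbour pairs. With 5 libraries this exact test cannot go below p = 0.063, so that no pair could pass 0.05, and the order of the neighbours was itself taken from these libraries. The gaps are therefore given mainly by their size and the number of libraries that share their direction. miR-378a-3p exceeded miR-378c in 5 of 5 libraries, by 2.09 ± 0.33 (SD) on the log2 scale (exact p = 0.063, adjusted 0.0833). miR-378c exceeded miR-378a-5p in 5 of 5 libraries by 4.33 ± 0.67 (exact p = 0.063, adjusted 0.0833). miR-378a-5p exceeded miR-378b in 5 of 5 libraries by 1.38 ± 1.07 (exact p = 0.063, adjusted 0.0833). miR-378b exceeded miR-378d in 4 of 5 libraries by 0.26 ± 0.57, a gap smaller than its SD (exact p = 0.375, adjusted 0.375). In Trim-/- libraries miR-378d had the higher mean of these last rows, by 0.16 ± 0.43 in 3 of 5 libraries (exact p = 0.50). Mature miRNAs are read whole, so that these levels were not divided by length. Adapter ligation can favour some miRNAs over others, and its part in the levels was not tested.

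Read against miR-378a-3p within each library, miR-378c and miR-378b kept narrower ratios than miR-378a-5p did. Over all 10 paired libraries miR-378c stood at 15.6% to 34.0% of miR-378a-3p (median 19.9%), a range of 2.18-fold. miR-378b stood at 0.302% to 0.503% (median 0.397%), a range of 1.66-fold, although its own values ran from 6.46 to 42.9. miR-378d stood at 0.256% to 0.565% (median 0.354%), a range of 2.2-fold. miR-378a-5p, from the same hairpin as the reference strand, stood at 0.576% to 3.41% (median 1.27%), a range of 5.93-fold. The 10 libraries are mirrored same-day pairs, so that these ranges follow from the mean levels and the same-day differences and are no separate evidence.

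The miR-378c ratio was lower in Trim-/- than in Trimfl/fl on 4 of 5 days, and the exception was day 4, with 19.9% in both genotypes. Its highest value, 34.0%, was that of the Trimfl/fl library of day 5. Added up, the 4 rows other than miR-378a-5p came to 2652 in that library and to 7376 to 10189.9 in the other 4 Trimfl/fl libraries. In the Trim-/- libraries their sum was 7601, 7289, 4824, 12362 and 7639 on days 1, 3, 4, 5 and 6. miR-378a-3p made up 74.1% to 82.9% of this sum in Trimfl/fl and 82.8% to 86.0% in Trim-/-.

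**Figure D1:**
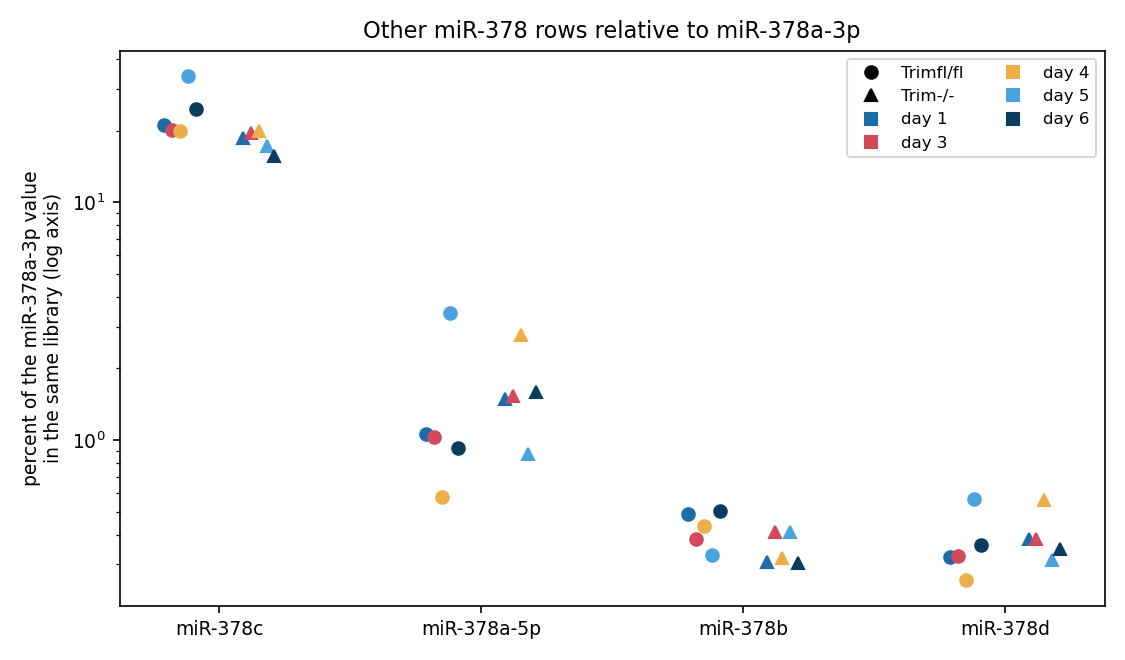
Values of the other miR-378 rows as a percentage of miR-378a-3p in the same library, on a log axis, with 1 symbol per library, circles for Trimfl/fl, triangles for Trim-/- and colours for days. miR-378c stays between 15.6% and 34.0%, whereas miR-378a-5p runs from 0.576% (Trimfl/fl, day 4) to 3.41% (Trimfl/fl, day 5).

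The question of the design was which miRNAs change when Trim71 is deleted, and the row that led to this family was miR-378a-5p. It had 94.2, 92.7, 110.0, 91.6 and 105 normalized read counts in the Trim-/- libraries of days 1, 3, 4, 5 and 6, a mean of 98.6 ± 8.19 (SD, n = 5). All 5 lay above all Trimfl/fl values, which ended at 67.1. On the log2(value + 1) scale, on which the changes of low rows are understated, the same-day differences were 0.54, 0.48, 1.16, 0.44 and 0.94. The limma estimate with day as block was 0.71 (SE 0.25), and the ratio of the group means was 1.64.

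miR-378a-5p was higher in Trim-/- on 5 of 5 days, at 0.64 in clone 1 and 0.82 in clone E3. The estimate was 0.60 to 0.78 with each pair left out in turn. These values belong to the contrast for which the row was picked and lend it no support. On each day between 75 and 209 of the 592 rows had a larger positive difference. Library sums of all values ran higher in Trim-/- than in Trimfl/fl on 4 of the 5 days, and after division by the library total the estimate was 0.45, beside a median of -0.24 over all rows.

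miR-378a-3p comes from the same hairpin. Its Trim-/- values were 6364, 6052, 3994, 10479.5 and 6571 on days 1, 3, 4, 5 and 6, with a mean of 6692 ± 2353 (SD, n = 5). The values of the genotypes overlapped widely. The same-day differences were 0.07, -0.08, -1.08, 2.41 and 0.16 on the log2 scale, so that days 4 and 5 moved apart in opposite directions while the other 3 days stayed near 0. The limma estimate was 0.30 (SE 0.52), and without the pair of day 5 it was -0.23. After division by the library total it was 0.03. The arms had the same sign on 3 of 5 days, and the difference between them was not tested.

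miR-378c had 1193, 1189, 795 and 1807 normalized read counts in Trim-/- on days 1, 3, 4 and 5, and 1025 on day 6, with a mean of 1202 ± 375 (SD, n = 5). It was lower than its Trimfl/fl partner on 4 of 5 days and higher on day 5, with same-day differences of -0.10, -0.11, -1.08, 1.43 and -0.50. Its limma estimate was -0.07 (SE 0.40), and it was -0.45 without day 5 and -0.34 after division by the library total.

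miR-378b had 19.6, 24.9, 12.7, 42.9 and 19.9 normalized read counts in Trim-/- libraries, with a mean of 24.0 ± 11.4 (SD, n = 5). The same-day differences were -0.58, 0.02, -1.46, 2.56 and -0.55, and the limma estimate was -0.0033 (SE 0.60), or -0.64 without day 5 and -0.26 after division by the library total. The genotypes overlapped in both miR-378b and miR-378c. Day 5 was the only day on which miR-378c was higher in Trim-/-, while miR-378b was higher on days 3 and 5, with nearly equal values on day 3.

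miR-378d had 24.3, 23.1, 22.3, 32.9 and 22.8 normalized read counts in Trim-/- libraries, a mean of 25.1 ± 4.41 (SD, n = 5). All 5 were above the Trimfl/fl values, but by little on most days. The lowest Trim-/- value was 22.3 and the highest Trimfl/fl value 21.7. The same-day differences were 0.30, 0.14, 0.04, 1.49 and 0.10, the limma estimate was 0.41 (SE 0.31), and it was 0.15 without day 5 and 0.16 after division by the library total.

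**Figure D2:**
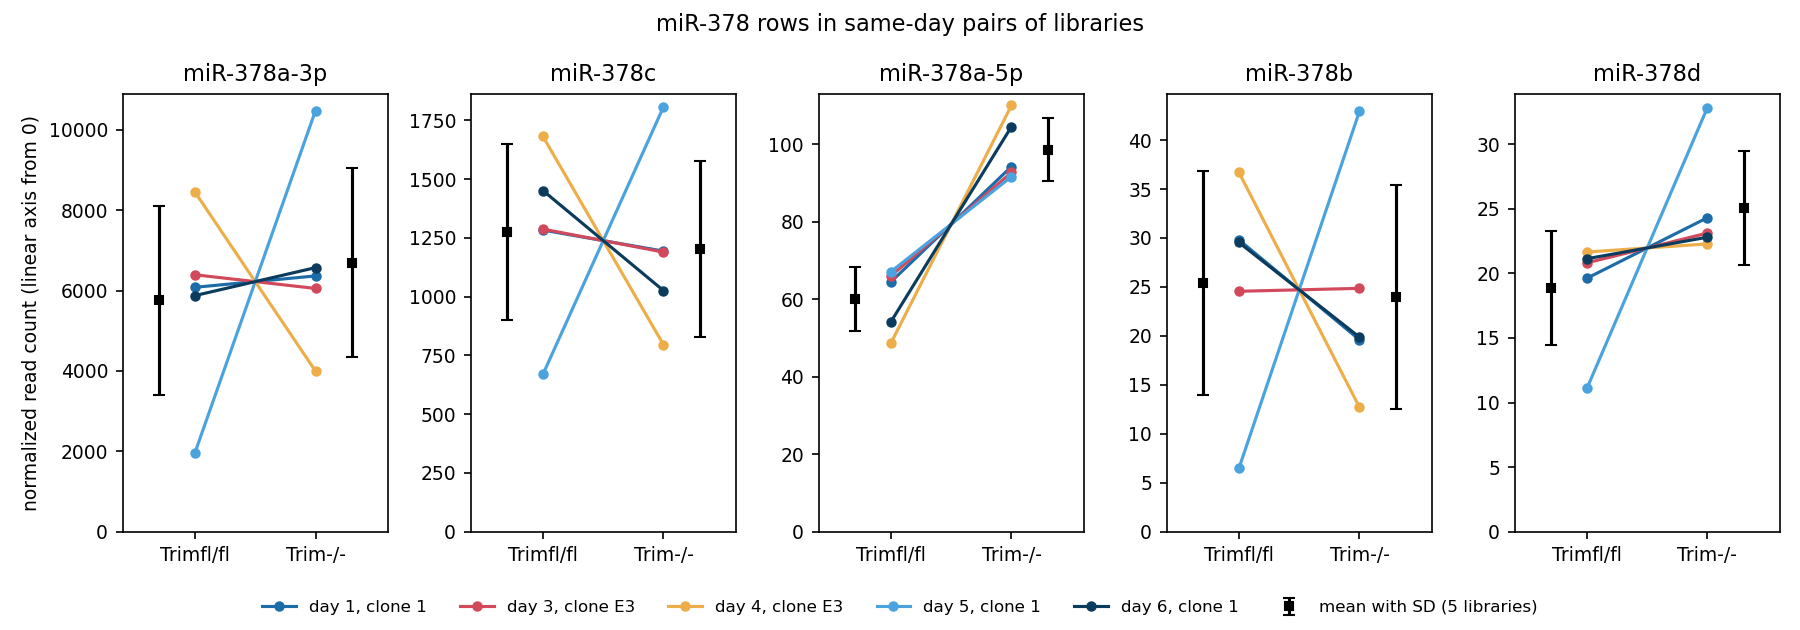
Normalized read counts of each miR-378 row in Trimfl/fl and Trim-/- libraries, on linear axes from 0, with 1 line per same-day pair coloured by day and squares with bars for the mean and SD of 5 libraries. All lines of miR-378a-5p rise, between 48.7 and 67.1 in Trimfl/fl and between 91.6 and 110.0 in Trim-/-, whereas miR-378a-3p, miR-378b and miR-378c each have both rising and falling lines. The lines of a panel meet at 1 point because same-day values have a constant sum.

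The study set its thresholds at a 1.5-fold change in either direction together with an unadjusted p under 0.05. Of the 5 members 1 passed, which was miR-378a-5p, the row for which the family was chosen. Among all rows 5.41% passed in either direction and 0.845% passed as higher in Trim-/-. No row of the table, the members included, had an adjusted p under 0.05 in limma (0%), where the smallest adjusted p was 0.607 and 32 rows had an unadjusted p under 0.05. Higher values in Trim-/- on all 5 days were found in 5.24% of the rows, and genotypes without overlap and with Trim-/- higher in 5.24%, the same rows by construction, against 2 of 5 members. Since the rule used this contrast, nothing is read from these counts or from how they change with the processing. Of the rows past the thresholds 5 were higher and 27 lower in Trim-/-, and after division by the library total 2 were higher of 50 that passed. miR-378a-5p no longer passed when day 1, 3, 4 or 6 was left out, within either clone alone, or after division by a library total.

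On days 4 and 5, miR-378a-3p, miR-378b and miR-378c differed between the genotypes in the same direction and more than on the other days. Over all 5 days the likeness was less complete, as miR-378a-3p had the sign of miR-378b on 2 days and that of miR-378c on 3. miR-378b and miR-378c had the same sign on 4 days. The root mean square distance between the 5 same-day log2 differences of miR-378a-3p and those of miR-378b was 0.47, and it was 0.54 to miR-378c and 0.67 to miR-378d. To its own 5p arm it was 1.42. Among the other 591 rows of the table, miR-378b was the 9th nearest to miR-378a-3p, miR-378c the 15th, miR-378d the 37th and miR-378a-5p the 242nd. Seen from miR-378b, miR-378a-3p was the 2nd nearest row and miR-378c the 4th. From miR-378c, miR-378a-3p was only the 16th and miR-378b the 21st. From miR-378d, miR-378a-3p was the 88th and miR-378b the 209th. Close copies can share reads, and the part of read sharing in this likeness was not tested.

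On day 5, miR-378b at 2.56 and miR-378a-3p at 2.41 lay above the 90th percentile of all rows, 2.09, while miR-378d at 1.49 and miR-378c at 1.43 lay within it. On day 4, miR-378b at -1.46 lay near the 10th percentile, -1.55, and miR-378a-3p and miR-378c were both at -1.08. The median of all rows was close to 0 on each day, between -0.02 and 0.02. Day 5 was the day with the lowest Trimfl/fl library sum, 2742673, against 5551715 in its Trim-/- partner. On day 4 the sums were 4332525 in Trimfl/fl and 3751519 in Trim-/-. On day 5 the sum and all 4 rows were higher in Trim-/-, and on day 4 the sum and 3 of them were lower, miR-378d being higher by 0.04. A library sum adds up corrected values, nearly mirrors that of its same-day partner as the rows do, and is not read depth. The part of the library sum was not tested.

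**Figure D3:**
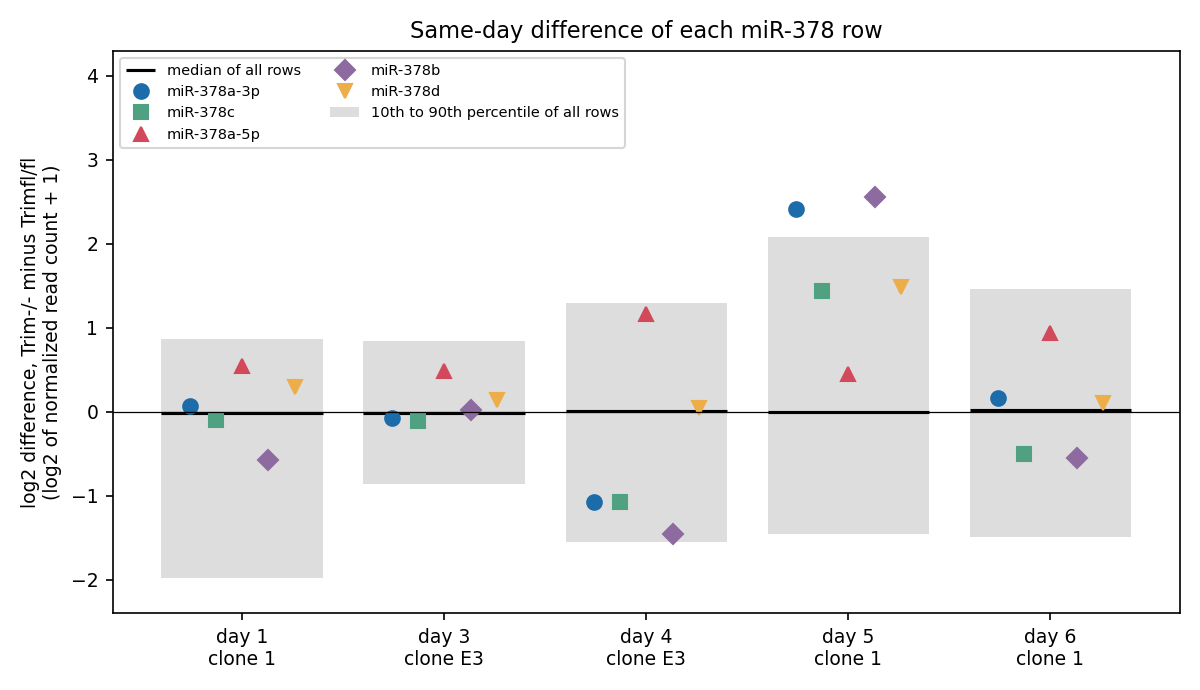
Same-day log2 difference, Trim-/- minus Trimfl/fl, of each miR-378 row by day and clone, with grey bars for the 10th to 90th percentile and black lines for the median of all 592 rows. miR-378a-5p lies between 0.44 and 1.16 on every day, while miR-378a-3p runs from -1.08 on day 4 to 2.41 on day 5.

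The clones were set side by side for each member. In clone 1 the mean same-day difference was 0.88 for miR-378a-3p, 0.48 for miR-378b, 0.28 for miR-378c and 0.63 for miR-378d. In clone E3 it was -0.58, -0.72, -0.60 and 0.09 in the same order. The largest differences behind these means were those of day 5 in clone 1 and, except in miR-378d, of day 4 in clone E3. The remaining days stayed between -0.58 and 0.30 in these rows. For miR-378d in clone E3 the larger difference was that of day 3, 0.14 against 0.04 on day 4. The difference between the clones was not tested.

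Arm against arm, the table holds 179 hairpins with both arms. Mir378a lies on the minus strand of GRCm38 at chr18:61397835-61397900, in an intron of Ppargc1b, which runs from 61298136 to 61400431 on the same strand. Its 3p strand was the higher by far, and the 5p mean was lower by a log2 ratio of -6.58 in Trimfl/fl. Of the 179 hairpins, 8 were biased to 3p more strongly. In the Trimfl/fl libraries miR-378a-5p made up 0.573% to 3.30% of both arms (median 1.02%), and in the Trim-/- libraries 0.867% to 2.68% (median 1.51%). These shares overlapped between the genotypes, and they come from normalized values, for which no counting interval can be given.

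The 5p difference exceeded the 3p difference on 4 of 5 days. The arm difference, 5p minus 3p, was 0.47, 0.56, 2.24, -1.97 and 0.77 on days 1, 3, 4, 5 and 6, with a mean of 0.42 ± 1.51 (SD, n = 5). Its spread over days was larger than its mean, and with each pair left out in turn it ran from -0.04 (without day 4) to 1.01 (without day 5). Among the 179 hairpins 53 had a larger arm difference, the median being 0.04 and the 10th and 90th percentiles -0.83 and 0.95. Most of the swing came from the 3p arm, whose day differences had an SD of 1.28 against 0.32 for the 5p arm. The distance of 1.42 between the arms was near the median over hairpins, 1.29, and 85 hairpins had a larger one. The direction and the size of the arm difference of miR-378a thus lay well inside the range of the other hairpins.

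**Figure D4:**
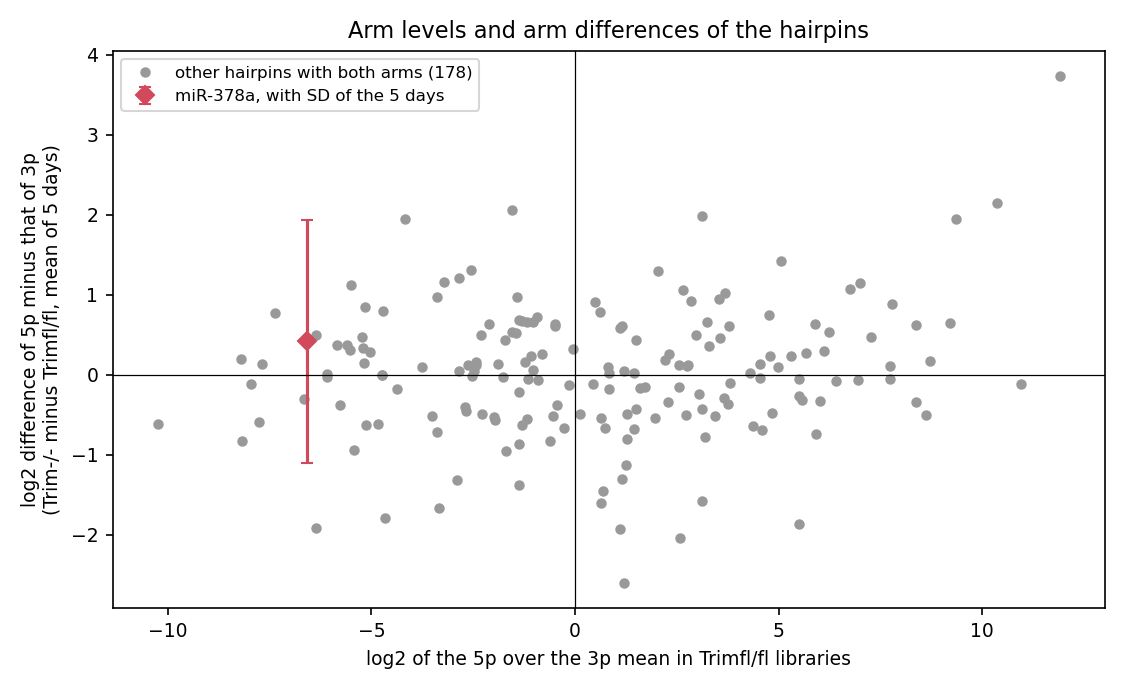
Each point is a hairpin with both arms in the table, by the log2 ratio of its 5p to its 3p mean in Trimfl/fl libraries and by the log2 genotype difference of 5p minus that of 3p (mean of 5 days). miR-378a, the red diamond with the SD of 5 days, lies at -6.58 on the level axis and at 0.42 on the difference axis, within the cloud of the other hairpins.

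The rows whose day-by-day differences were most like those of miR-378a-5p were found by the same distance over the 5 days. They were miR-145a-3p (distance 0.26), miR-26a-2-3p (0.31), miR-196a-5p (0.39), miR-24-2-5p (0.40) and miR-883a-3p (0.43). miR-145a-3p is the lesser arm of miR-145, a miRNA of smooth muscle and fibroblasts, and had 28.4 normalized read counts on average in Trimfl/fl. miR-26a-2-3p, miR-24-2-5p and miR-145a-3p are, like miR-378a-5p, arms opposite to the better known strand of their hairpin. The table holds both arms of 179 hairpins. The share of such lesser arms over all rows was not counted, so nothing is read from this. miR-196a-5p comes from the Hox gene clusters and had a mean of 171. All 5 had positive differences on every day, and their limma estimates ran from 0.50 to 0.62. The likeness describes the contrast by which miR-378a-5p was picked and has no test.

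For the other members such rows were looked up after their values had been seen. Those nearest to miR-378a-3p were miR-192-5p (distance 0.29) and miR-320-3p (0.35), and the one nearest to miR-378c was miR-450b-5p (0.23). For miR-378d it was miR-344-3p (0.14), and for miR-378b it was miR-330-3p (0.37). In all of these rows the difference of day 5 was between 1.44 and 2.82.

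Since miR-378 is known from muscle and fat, miRNAs of these tissues were set beside it. Of the muscle miRNAs 3 rows were in the table, and their limma estimates were all positive, with a median of 0.36 against 0.03 over all rows, but 0 passed the thresholds. The highest, miR-499-5p, which is made from an intron of the myosin gene Myh7b, had a mean of 243 in Trimfl/fl and 285 in Trim-/- (estimate 0.24, SE 0.29). Rows of miR-133, miR-206 and miR-208 were not in the table. The summed muscle rows ran from 231 to 360 in Trimfl/fl and from 285 to 413 in Trim-/-. As a share of the library they ran from 0.00615% to 0.0112% in Trimfl/fl and from 0.00611% to 0.0095% in Trim-/-.

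Of the fat miRNAs 20 rows were listed, 11 with a positive and 9 with a negative estimate, a median of 0.10, and 0 past the thresholds. The highest was miR-27b-3p, a miRNA known to restrain fat cell formation, with a mean of 25407 in Trimfl/fl and 26243 in Trim-/- (estimate 0.06, SE 0.36). miRNAs from introns of other metabolic genes, miR-33 in Srebf2 and miR-103 and miR-107 in the Pank genes, gave 4 rows. The rows of miR-103 and miR-107 were also counted among the fat rows above. All 4 rows of this list had a negative estimate, beside 289 of all 592 rows. Their median was -0.16, and 0 passed the thresholds. The highest, miR-103-3p, had a mean of 13512.5 in Trimfl/fl and 11884 in Trim-/- (estimate -0.19, SE 0.27).

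Markers of other cell types were also summed, although the sort for SSEA-1 was meant to remove differentiated cells. The 12 rows of fibroblast or mesenchymal miRNAs held 1.39% to 9.55% of a Trimfl/fl library and 7.44% to 15.5% of a Trim-/- library, with miR-21a-5p highest. In 9 of the 12 the estimate was positive, and 0 passed. The lowest share, 1.39% in Trimfl/fl, and the highest, 15.5% in Trim-/-, both came from the day 5 pair. In its Trimfl/fl library miR-21a-5p is listed at the floor of 1. The 8 rows of neural miRNAs held 0.124% to 0.155% of a Trimfl/fl library and 0.158% to 0.182% of a Trim-/- library, with miR-9-5p highest. Their summed values overlapped between the genotypes, at 3393 to 6715 in Trimfl/fl and 5927 to 9249 in Trim-/-. Of these 8 rows 7 had a positive estimate, with a median of 0.55, beside 303 of all 592 rows, and 0 passed. Their part in the miR-378 values was not tested. Fewer cells that express a miRNA and less of it per cell cannot be told apart in these bulk libraries.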

How the data were processed

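Small RNA of 11 libraries was sequenced as 50 bp reads. Per the paper's methods and the submitters' processing notes, the authors used CASAVA 1.8, Bowtie2 2.2.1 (mm10, miRBase v20) and Partek 6.6, normalized counts with DESeq2, corrected for batch, raised values under 1 to 1 and required a group mean of 10. The deposited values are thus a batch-corrected signal in units of normalized read counts, without raw counts. Depth is unknown and precision comes from the 5 pairs. The labels name another kit and read length.

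limma 3.58.1 (R 4.3.3) was fitted on log2(value + 1) over all 592 miRNAs, with genotype and day as factors, in the 10 paired libraries; 9677 blank rows were dropped. The pairing comes from the day labels. Same-day deviations from the group means correlated at -0.65 to -0.41 across miRNAs on the log2 scale, which the constant same-day sums impose. Nothing in the labels says that days were separate cultures, so the spread may be technical. Python 3.11.15 and pandas 2.3.3 were used for the rest, with GENCODE M21 and RefSeq for positions and sequences. Alternatives were other scalings, pseudocounts of 0.1 and 10, limma with trend, a mean of at least 100, other blocks, single clones and left-out pairs. Rows named are all miR-378 rows, the 5 nearest to miR-378a-5p and the highest of each list; rows nearest to the other members were named after their values were seen. Members and lists were chosen with earlier results of these data known.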

Additional observations from a re-analysis of the deposited data

Results flagged for a closer look

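miR-378a-3p moved in opposite directions in the clones, with a mean log2 difference of 0.88 in clone 1, positive on all 3 of its days, and of -0.58 in clone E3, negative on both. Each mean rests mainly on 1 day. The same-day differences were 0.07, 2.41 and 0.16 on days 1, 5 and 6 of clone 1, and -0.08 and -1.08 on days 3 and 4 of clone E3. The difference between the clones was not tested. Of all rows, 48 (8.11%) split between the clones in either direction, and 24 (4.05%) with clone 1 higher, as here. miR-378d had a value far from the others of its genotype on day 5. In Trim-/- the highest value, 32.9, was separated from the next by 0.808 of the range of the 5 libraries, and in Trimfl/fl the lowest, 11.1, by 0.808, the same distance because same-day values mirror each other. Chance alone marks about 1 in 20 groups of this size, and 5 rows were examined.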

How the results depend on the processing

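Of the members, miR-378a-5p kept its direction under all alternatives, at 0.60 to 0.78 with 1 pair left out and 0.45 to 0.82 otherwise, and so did miR-378d, at 0.15 to 0.51 and 0.09 to 0.63. Both rows were higher in Trim-/- on all 5 days, so that left-out pairs, single clones, other blocks and pseudocounts could not change the direction. It lends no support to miR-378a-5p, which was picked by this contrast. Without a replicate block the miR-378a-5p estimate was again 0.71, with an SE of 0.14 instead of 0.25. miR-378a-3p ran from -0.23 to 0.64 with 1 pair left out and from -0.58 to 0.88 otherwise, miR-378b from -0.64 to 0.36 and from -0.72 to 0.48, and miR-378c from -0.45 to 0.18 and from -0.60 to 0.28. Adding miR-378c to miR-378a-3p gave 0.23 for their sum. The arm difference was 0.34 to 0.48 under the other pseudocounts and with miR-378c added to 3p. The gap of miR-378a-3p over miR-378c was 2.46 in Trim-/- libraries, and that of miR-378c over miR-378a-5p 3.55 there and 6.73 with miR-378a-3p added. The filter on a mean of at least 100 removed miR-378a-5p, miR-378b and miR-378d.

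The background count of 32 rows past the thresholds was 101 without the replicate block, 93 with clone as block, 116 with all 11 libraries, 50 after division by the library total, 15 of 329 with a mean of at least 100, 59 in clone 1 alone, and 16 to 67 with 1 pair left out. The 5 that were higher in Trim-/- became 42, 36 and 45 under the first 3 of these, 2 after division by the library total, with or without miR-290 to miR-295, 8 with a pseudocount of 10, 14 in clone 1, 8 in clone E3, and 4 to 23 with 1 pair left out. The fits without a day block count mirrored libraries as separate ones. The causes of these changes were not tested. Read depth is unknown, so that no limit for low rows such as miR-378b and miR-378d could be computed.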
